A study of Rattus norvegicus with 4 samples.

Results

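The genes described here are 10 genes of the circadian clock or of the response to glucocorticoids, measured in rat striatum after gamma knife irradiation. They were chosen by name, with earlier results of these data known: a probe was a member where the platform annotation gave it exactly 1 gene and that gene, by Entrez identifier, was one of the 10. This took 17 of 23535 probes with 1 gene, and 10 of 14878 genes. Of these, 7 genes with 10 probes belong to the clock (Per1, Per2, Nr1d1, Dbp, Bmal1, which older annotations call Arntl, Clock and Bhlhe40), and 3 genes with 7 probes are induced by glucocorticoids (Fkbp5, Sgk1 and Tsc22d3).

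The tissue came from adult male Wistar rats, 4 in the whole study. In the irradiated rats 1 striatum, the left by the labels, received a central maximum of 60 Gy over 30 min through a 4 mm collimator under pentobarbital anaesthesia, and striata were taken 16 h later. For each side RNA from irradiated rats was co-hybridised with RNA from the same side of control rats on 2 two-colour Agilent arrays: irradiated left striatum with control left striatum, and un-irradiated right striatum with control right striatum. On array 1 of each side the experimental RNA carried the red dye Cy5, on array 2 the green dye Cy3. Both arrays of a side carry 1 pair of RNAs, so there is 1 replicate a side, no test could be made, and no error between animals is known. The labels do not say how many rats stand behind each RNA, whether control rats were fixed in the frame, or at which clock hour each brain was removed. Values are log2 ratios of experimental to control RNA with the sign of array 2 turned; the table states neither log base nor direction, and both were read as the scanner software writes them. Means are over both arrays of a side, and the figure after ± is how far each array lies from that mean, a technical spread. A gene or probe passed the fold rule if both arrays exceeded 1.5-fold (0.585 in log2) in 1 direction.

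The clock is a feedback loop of transcription factors found in most cells, the striatum included. Clock and Bmal1 form a pair that binds E-box sequences and drives Per1, Per2, Nr1d1, Dbp and Bhlhe40. The Per proteins, with the Cry proteins, then hold the pair back, while Nr1d1 (Rev-erb alpha) represses Bmal1 and Bhlhe40 competes at the same E-boxes. Glucocorticoids, whose release follows both the hour and stress, act through the glucocorticoid receptor, a nuclear receptor that switches on Fkbp5, Sgk1, Tsc22d3 and also Per1. For that reason the 10 genes bear on whether experimental and control brains were alike in hour and in systemic stress, which is the question the comparison addresses here.

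The RefSeq promoter table of the GRCr8 assembly held all 10 genes, in 16 windows that run from 250 bases before a transcription start to 50 after it. The elements searched, on both strands and as exact letters, were the E-box CACGTG, the D-box TTATGTAA or TTACGTAA bound by Dbp, AGGTCA, the core of the element read by Rev-erb and ROR receptors, and ACANNNTGT, the core of the glucocorticoid response element, as well as the cyclic AMP element TGACGTCA. The E-box was found in 2 of the 16 windows, and in 6.42% of all 33469 windows in the table. AGGTCA was found in 1 member window (16.2% of all windows), ACANNNTGT in 3 (6.86%), TTATGTAA in 1 (0.893%), and TTACGTAA and TGACGTCA in 0 (0.120% and 1.83%). No 2 of these matches overlapped. The 4 windows below are those of the 1 member that passed the fold rule, Bhlhe40, of Nr1d1, which holds the same E-box and did not pass, of Bmal1, with the receptor core, and of Tsc22d3, with the glucocorticoid core. Capitals mark the matches.
Bhlhe40, chr4:143174200-143174499, plus strand, E-box at -220: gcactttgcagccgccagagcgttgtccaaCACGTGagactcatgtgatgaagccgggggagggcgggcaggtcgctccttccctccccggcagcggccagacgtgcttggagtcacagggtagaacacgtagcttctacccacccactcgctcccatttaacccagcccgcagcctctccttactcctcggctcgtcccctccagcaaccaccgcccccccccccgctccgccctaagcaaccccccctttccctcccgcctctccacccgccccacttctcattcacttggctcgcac
Nr1d1, chr10:84229405-84229704, minus strand, E-box at -191 and glucocorticoid core at 38: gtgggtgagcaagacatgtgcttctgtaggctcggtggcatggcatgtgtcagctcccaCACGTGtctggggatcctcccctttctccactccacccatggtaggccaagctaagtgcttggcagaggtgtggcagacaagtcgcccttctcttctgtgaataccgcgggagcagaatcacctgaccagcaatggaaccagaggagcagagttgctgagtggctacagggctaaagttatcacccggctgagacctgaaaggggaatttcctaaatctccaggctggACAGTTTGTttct
Bmal1, chr1:176766078-176766377, plus strand, receptor core at -15: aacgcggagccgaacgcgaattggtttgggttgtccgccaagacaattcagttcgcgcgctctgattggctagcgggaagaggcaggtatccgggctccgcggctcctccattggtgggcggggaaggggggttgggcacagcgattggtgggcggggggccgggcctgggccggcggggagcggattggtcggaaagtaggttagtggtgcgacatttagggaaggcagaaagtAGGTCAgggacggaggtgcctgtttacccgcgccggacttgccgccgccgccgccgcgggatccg
Tsc22d3, chrX:109065381-109065680, minus strand, glucocorticoid core at -183: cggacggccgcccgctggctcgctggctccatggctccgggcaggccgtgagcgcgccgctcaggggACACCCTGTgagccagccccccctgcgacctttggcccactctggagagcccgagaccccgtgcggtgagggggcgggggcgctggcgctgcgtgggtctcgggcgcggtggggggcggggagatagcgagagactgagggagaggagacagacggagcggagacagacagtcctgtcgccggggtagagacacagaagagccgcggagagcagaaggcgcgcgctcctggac
Positions count from 1 at the start of transcription, with negative numbers before it. Per2 held TTATGTAA at -192 and 1 window of Clock held ACATAATGT at 32. The windows of Per1, Dbp, Fkbp5 and Sgk1 held none of the letters searched.

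Of the 10 genes 1 passed the fold rule on the irradiated left side, upward, and 0 passed downward. That gene was Bhlhe40 (also called Dec1), a repressor that binds E-boxes and is also known to answer to hypoxia and growth signals. Over all genes 1.18% passed upward on the left and 1.03% downward, and a single gene of 10 is too few to read as more than that share. On the un-irradiated right side 0 of 10 genes passed in either direction, where 1.71% of all genes passed upward and 1.46% downward. Both sides come from irradiated rats and are not independent. Ccng1, Cdkn1a and Fas, p53 target genes that answer to DNA damage, were picked by name as a check of direction. They passed upward on both sides, with means of 2.01, 2.01 and 2.39 on the left and 1.33, 1.48 and 1.54 on the right. Other p53 targets were not counted here, so these genes do not describe such targets as a whole. In the left-minus-right difference, taken array 1 from array 1 and array 2 from array 2, 0 of 10 passed either way, against 4.85% of all genes. The median of the 10 genes was 0.02 on the left and -0.05 on the right, beside 0.0011 and -0.01 over all genes. By probes, 2 of the 17 passed upward on the left, both of Bhlhe40, where 1.42% of all probes with 1 gene did, and 1 of 17 on the right, where 2.12% did; 0 passed downward on either side. With 1 replicate a side these counts have no test.

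**Figure D1:**
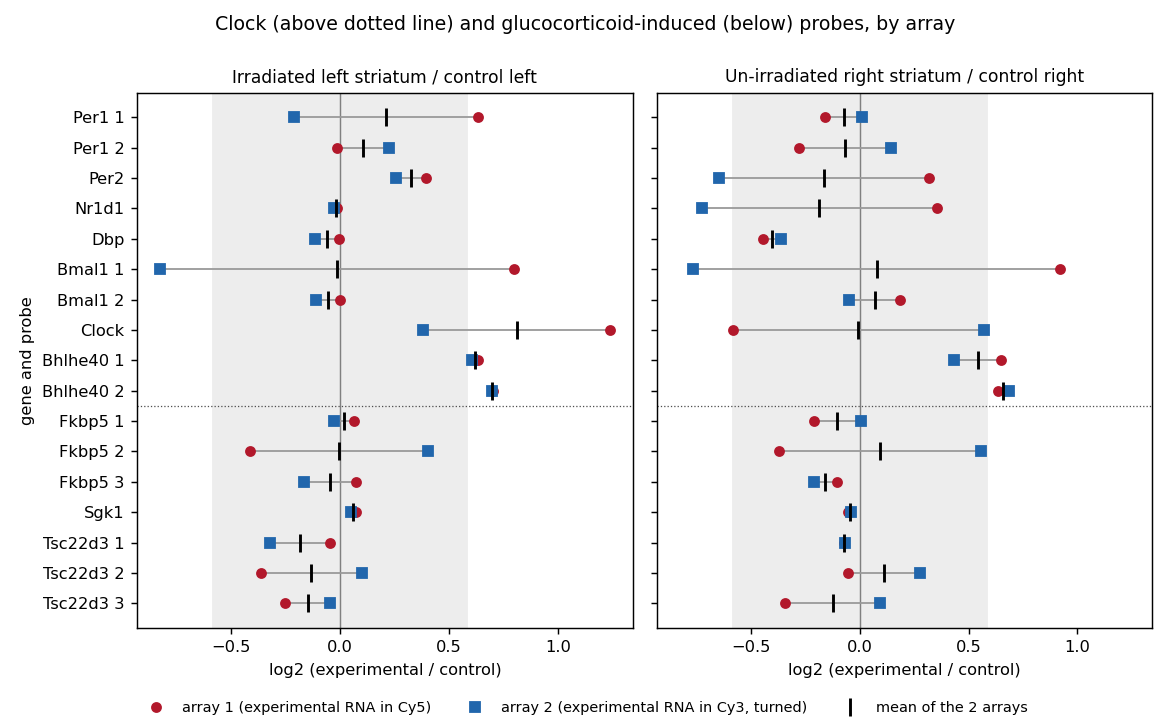
Each of the 17 member probes as log2 of experimental over control RNA on array 1 (red circles), array 2 with its sign turned (blue squares) and their mean (black ticks), for the irradiated left side and the un-irradiated right side. Shading spans the range within 1.5-fold. Both Bhlhe40 probes lie beyond it on both left arrays, and Bmal1 probe 1 lies beyond it on opposite sides of 0 on both sides of the brain.

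Bhlhe40 was read by 2 probes that gave similar values on all 4 arrays. Its first probe, annotated to the RefSeq mRNA, read 0.63 on array 1 and 0.61 on array 2 of the left side, and 0.65 and 0.43 on those of the right side. Pairs of readings below keep this order. Its second probe, annotated to another sequence, read 0.70 and 0.70 on the left and 0.63 and 0.68 on the right. All 8 readings were above 0, and the 1 below the 1.5-fold line was that of the first probe on right array 2. Over both probes Bhlhe40 stood at 0.66 ± 0.0085 on the left, a 1.58-fold excess over control, and at 0.60 ± 0.04 on the right, a 1.52-fold excess. The right value missed the rule by its second array, at 0.56, and it passed when each array was centred on its median (0.60). The difference between the sides was 0.06 ± 0.03, under the fold rule. A larger absolute mean than that of Bhlhe40 was found for 5.4% of all genes on the left and for 10.9% on the right.

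Per1 and Per2 are repressors of the loop, and Per1 is also induced by glucocorticoids and by neuronal activity. Per1 had 2 probes that did not match each other. The first, annotated to an expressed sequence tag, read 0.63 and -0.21 on the left and -0.16 and 0.01 on the right. The second, annotated to the RefSeq mRNA, read -0.01 and 0.23 on the left and -0.28 and 0.14 on the right. On each probe the 2 arrays of a side went in opposite directions on both sides, and the gene means were 0.16 ± 0.15 on the left and -0.07 ± 0.15 on the right. Per2, with 1 probe, read 0.39 and 0.26 on the left and 0.32 and -0.65 on the right. Its left mean of 0.33 ± 0.07 was above 0 on both arrays and under the fold rule, whereas the 2 right arrays opposed each other (-0.16 ± 0.48).

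Nr1d1 and Dbp are outputs of the Clock and Bmal1 pair whose RNA swings widely over a day in other rodent tissues. Dbp encodes a transcription factor that acts at D-boxes. Its probe read -0.0048 and -0.12 on the left and -0.45 and -0.36 on the right. Dbp was thus below control on all 4 arrays, with a mean of -0.06 ± 0.06 on the left and -0.41 ± 0.04, a linear ratio of 0.755, on the right. Neither side passed the fold rule, and 19.7% of all genes had a larger absolute mean on the right. The left-minus-right difference of Dbp was 0.34 ± 0.10, positive on both dye orientations and under the rule. Nr1d1 read -0.01 and -0.03 on the left, where both arrays were close to 0. On the right it read 0.35 and -0.73, which gave a mean of -0.19 ± 0.54 with no common direction.

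Clock and Bmal1 make the activating pair. The single probe of Clock read 1.24 and 0.38 on the left and -0.58 and 0.57 on the right. Its left mean of 0.81 ± 0.43 was the largest of the 10 genes and was above 0 on both arrays, but array 2 did not reach 1.5-fold and the gene was not counted. On the right the arrays went opposite ways (-0.0066 ± 0.58). The first probe of Bmal1, annotated to an expressed sequence tag, read 0.80 and -0.83 on the left and 0.92 and -0.77 on the right. Its 2 arrays thus had opposite signs on both sides, and the cause was not tested. The second Bmal1 probe, annotated to the RefSeq mRNA, read -0.0034 and -0.11 on the left and 0.18 and -0.05 on the right. The means of the 2 probes agreed near 0, at -0.02 and -0.06 on the left and 0.08 and 0.07 on the right.

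The glucocorticoid-induced genes lay within the 1.5-fold range in all 28 readings of their 7 probes. Fkbp5 encodes a co-chaperone that lowers the affinity of the glucocorticoid receptor for its hormone. Probe 1 read 0.06 and -0.03 on the left and -0.21 and 0.0045 on the right. Probe 3 read 0.07 and -0.17 on the left and -0.11 and -0.21 on the right. Probe 2 read -0.41 and 0.40 on the left and -0.37 and 0.56 on the right, again with opposite signs on the 2 dyes. All 3 probes are annotated to the same RefSeq mRNA, and the gene averaged -0.01 ± 0.08 on the left and -0.06 ± 0.17 on the right, which are linear ratios of 0.992 and 0.961.

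Sgk1, a kinase that regulates ion channels and transporters, was among the members whose arrays were closest together. It read 0.07 and 0.05 on the left and -0.06 and -0.04 on the right, or 0.06 ± 0.01 and -0.05 ± 0.0085 as means. Tsc22d3, the leucine zipper protein GILZ that restrains inflammatory transcription factors, had 3 probes. These averaged -0.18, -0.13 and -0.15 on the left and -0.07, 0.11 and -0.12 on the right. The gene stood at -0.16 ± 0.07 on the left, below control on both arrays, and at -0.03 ± 0.13 on the right, and neither value passed.

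**Figure D2:**
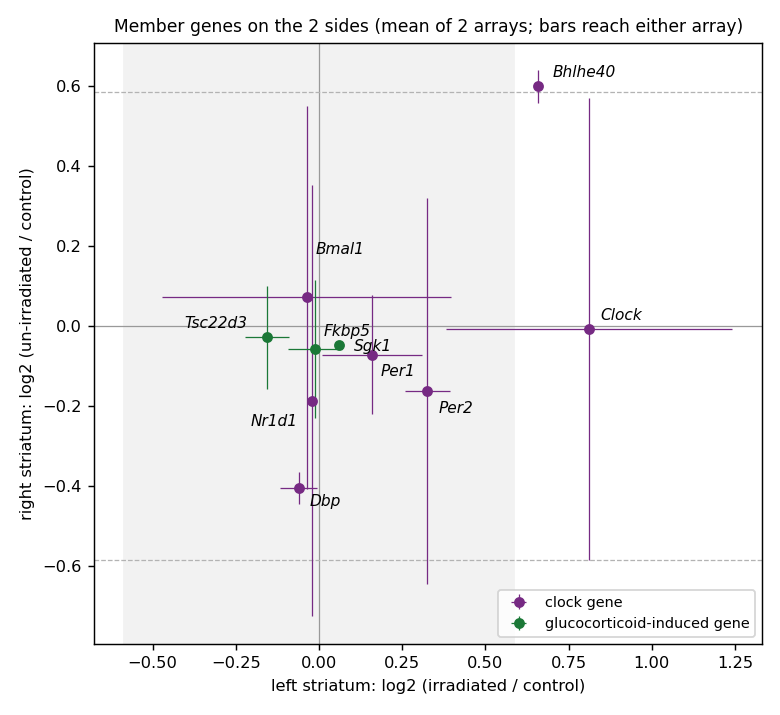
The 10 member genes by their mean log2 ratio on the left (horizontal axis) and on the right (vertical axis), with bars reaching the value of either array. Shading and dashed lines mark 1.5-fold. Bhlhe40 lies at 0.66 and 0.60, Dbp at -0.06 and -0.41, and the 3 glucocorticoid-induced genes lie within 0.2 of 0 on both axes.

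The 2 arrays of a side often disagreed. The distance of either array from the mean was larger than the mean itself for 7 of 17 member probes on the left and 11 of 17 on the right, beside 52.0% and 56.2% of all probes with 1 gene. The median of that distance was 0.10 on the left and 0.12 on the right over the member probes, beside 0.17 and 0.19 over all probes with 1 gene. Array 1 minus array 2, divided by 2, which holds dye effects and the noise of single arrays, was 0.81 on the left and 0.84 on the right for the first Bmal1 probe and -0.41 and -0.46 for the second Fkbp5 probe. For Clock it was 0.43 on the left and -0.58 on the right. Across the 17 member probes the left and right values of this quantity correlated at r = 0.457, and over all 23535 probes with 1 gene at r = 0.540, a description over probes that share the same 4 arrays.

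**Figure D3:**
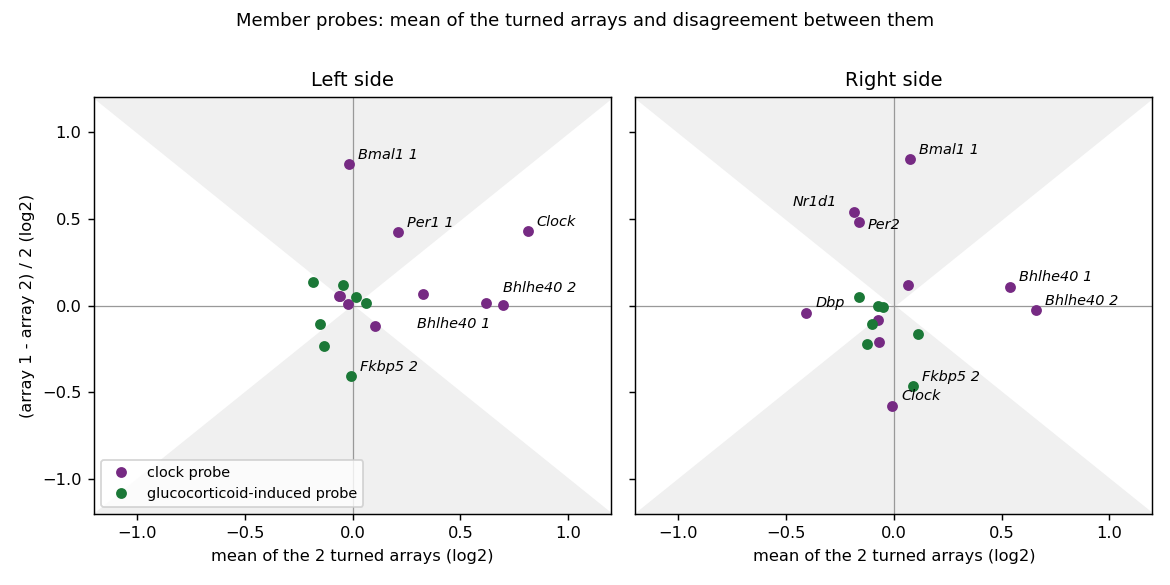
Each member probe by the mean of the 2 turned arrays (horizontal axis) and by array 1 minus array 2, divided by 2 (vertical axis), both on the log2 scale, for the left and right sides. In the shaded sectors the disagreement between arrays exceeds the mean. Bhlhe40 lies near the horizontal axis on both sides, while Bmal1 probe 1 and Fkbp5 probe 2 lie near the vertical axis.

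Other clock genes were described from a list of 27, of which 19 were measured. On the left 1 passed upward and 0 downward, where 1.18% and 1.03% of all genes did. On the right 1 passed upward and 0 downward, where 1.71% and 1.46% of all genes did. Single genes of 19 are too few to read against those shares. The medians were -0.05 on the left and -0.0036 on the right. The gene that passed on the left was Btrc, the F-box protein that marks Per proteins, and also the NF-kappaB inhibitor, for degradation. Btrc read 0.77 and 0.62 on the left and 0.05 and -0.39 on the right over 2 probes. Its left-minus-right difference of 0.86 ± 0.15 also passed the fold rule. Of its 2 probes the RefSeq mRNA probe passed on the left (0.87 ± 0.17) and the other did not (0.53 ± 0.02). The gene that passed on the right was Vip, a neuropeptide that couples clock neurons of the hypothalamus and is made by cortical interneurons as well. Vip stood at 0.89 ± 0.04 on the right and 0.02 ± 0.16 on the left, a left-minus-right difference of -0.87 ± 0.12 that passed downward. Its RefSeq mRNA probe read 1.68 and 0.98 on the right, and its other probe 0.02 and 0.90, and only the first of these passed. The 2 probes differed between arrays in opposite directions (± 0.35 and ± 0.44). The spread of 0.04 for the gene on the right is therefore smaller than that of either probe.

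The remaining core genes did not pass. Per3, the remaining Per gene, averaged 0.13 ± 0.19 on the left and 0.24 ± 0.19 on the right. Cry1 and Cry2, the partners of the Per proteins, had means of -0.30 ± 0.60 and -0.21 ± 0.31 on the left. On the right these were -0.17 ± 0.79 and 0.14 ± 0.45. Npas2, which can take the place of Clock in the forebrain, averaged -0.10 ± 0.20 on the left and -0.12 ± 0.06 on the right. One of its 3 probes was below control on all 4 arrays, at -0.36 ± 0.05 and -0.43 ± 0.04, and the other 2 were not. Nr1d2 (Rev-erb beta) averaged -0.13 ± 0.17 on the left and -0.28 ± 0.28 on the right.

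**Figure D4:**
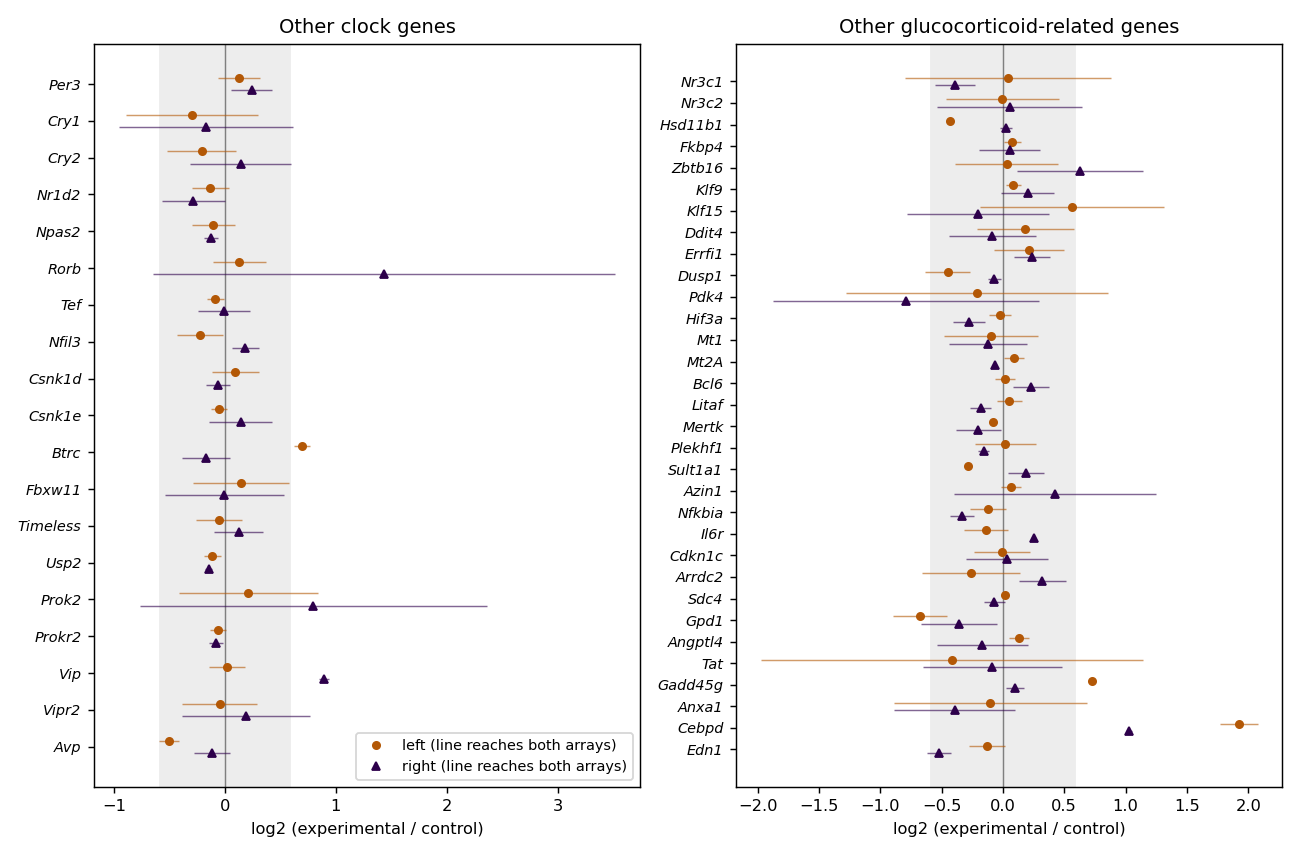
Mean log2 ratio of the 19 other clock genes (left panel) and the 32 other glucocorticoid-related genes (right panel) on the left side of the brain (circles) and on the right side (triangles), with lines reaching both arrays and shading within 1.5-fold. The genes that passed are Cebpd on both sides, Btrc and Gadd45g on the left side and Vip on the right side. The means of Gpd1 on the left side (-0.67) and of Rorb, Prok2, Zbtb16 and Pdk4 on the right side (1.44, 0.80, 0.63 and -0.79) also lie beyond the shading, without both arrays past 1.5-fold in 1 direction.

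Of 34 other genes that convey or answer to glucocorticoids 32 were measured. On the left 2 passed upward and 0 downward, beside 1.18% and 1.03% of all genes, and on the right 1 passed upward and 0 downward, beside 1.71% and 1.46%. With 1 replicate a side neither count has a test. The medians were 0.0054 on the left and -0.07 on the right. Cebpd, a transcription factor that is induced by glucocorticoids and equally by cytokines in the acute phase, passed on both sides. It read 1.77 and 2.08 on the left and 1.05 and 1.0 on the right, and its left-minus-right difference of 0.90 ± 0.18 passed as well. Gadd45g, a growth arrest gene that also answers to DNA damage and other stresses, passed on the left at 0.72 ± 0.0071 and stood at 0.10 ± 0.07 on the right. Klf15, a glucocorticoid-induced factor, did not pass on either side (0.56 ± 0.75 and -0.20 ± 0.58) but its left-minus-right difference did, at 0.77 ± 0.17. That difference rests on a probe annotated to an expressed sequence tag, which read 2.65 and 0.03 on the left and 0.62 and -1.17 on the right. The RefSeq mRNA probe of Klf15 averaged -0.22 on the left and -0.13 on the right.

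The receptors themselves did not pass as means over their probes. Nr3c1, the glucocorticoid receptor, had 2 RefSeq mRNA probes (1 and 3 of its 3) that averaged -0.09 and -0.06 on the left and -0.14 and -0.07 on the right. Probe 2, annotated to an expressed sequence tag, read 2.56 and -1.98 on the left and -0.62 and -1.31 on the right, where it passed downward alone. That probe alone set the gene means at 0.04 ± 0.84 and -0.39 ± 0.16. Nr3c2, the mineralocorticoid receptor, averaged -0.0044 ± 0.46 on the left and 0.06 ± 0.59 on the right. Zbtb16 and Klf9, both transcription factors strongly induced by glucocorticoids in other tissues, stood at 0.03 ± 0.42 and 0.08 ± 0.06 on the left. On the right the mean over the 2 probes of Zbtb16 was above control on both arrays, at 0.11 and 1.14, without passing (0.63 ± 0.51). Those 2 probes differed there: the first read 0.555 and 0.992 and the second -0.325 and 1.285. The left-minus-right difference of the first probe passed downward (-0.77 ± 0.07), and that of the gene did not (-0.60 ± 0.09). Klf9 was at 0.20 ± 0.22 on the right. The 3 probes of Klf9 did not match. Its 2 RefSeq mRNA probes averaged -0.06 and -0.28 on the left and -0.05 and -0.29 on the right, while its expressed sequence tag probe read 1.15 and 0.04 on the left and 0.72 and 1.16 on the right, where it passed upward alone. By the RefSeq mRNA probes only, Klf9 stood at -0.17 on both sides.

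By the smallest root mean square difference over the 4 array values, the genes with a pattern most like that of Bhlhe40 among 14877 others were Dleu7 (0.04), Or1e18 (0.07) and Lgals3bp (0.08), each read by 1 probe. Dleu7 read 0.72 and 0.64 on the left and 0.60 and 0.50 on the right. Likeness over 4 arrays from 2 pairs of RNAs is a description only.

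Cell type composition, RNA per cell and transcription cannot be told apart in whole striatum, and markers of several cell types differed between experimental and control RNA. The counts below are by the fold rule, which 1.18% of all genes passed upward and 1.03% downward on the left. On the right these shares were 1.71% and 1.46%. A count of 1 or 2 in so short a list is too few to read against them. Of 13 markers of striatal projection neurons 1 was lower on the left and 7 on the right, with medians of -0.43 and -0.69. Of 10 markers of cortical excitatory neurons 1 was lower and 0 higher on the left, while 4 were higher and 0 lower on the right, with medians of -0.06 and 0.48. Of 10 markers of meninges and fibroblasts 3 were lower on the left and 4 higher on the right, with medians of -0.51 and 0.45. The medians of 9 oligodendrocyte markers were -0.47 and -0.40 with 0 passing, and of 9 endothelial markers -0.26 and -0.0041, also with 0 passing. Of 10 astrocyte markers (medians -0.33 and -0.08) Gfap, the filament protein of reactive astrocytes, was higher on both sides (1.16 ± 0.40 and 1.10 ± 0.11) and Gjb6 was lower on the left (-0.77 ± 0.04). Of 9 microglia markers (medians -0.44 and -0.18) P2ry12, a receptor of resting microglia, was lower on both sides (-2.67 ± 0.24 and -1.05 ± 0.08) and C1qa was lower on the left (-0.79 ± 0.09). Of 8 choroid plexus markers (medians 0.08 and -0.05) Kcnj13 was higher on the right (2.13 ± 0.40). The part of these shifts in the values of Bhlhe40, Dbp, Btrc, Vip and Cebpd was not tested. The table holds ratios without intensities, so neither the level of any gene nor the presence of striatal markers could be read.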

How the data were processed

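The authors extracted features with Agilent Feature Extraction 8.1 per the submitters' processing notes, with settings that the labels do not state. The deposited table (43628 features, 4 arrays, 0 missing values) was taken to hold log10 red-over-green ratios, as that software deposits them, and was multiplied to log2. Its base, centring and direction are unstated; deposited medians (log10) lay from 0.00418 to 0.0111. Array 2 of each side was turned after the dyes in the labels. After turning, pairs of probes of 5654 genes correlated at 0.163 (left) and 0.0865 (right), against 0.0380 and 0.0411 unturned, and Ccng1, a p53 target, read 2.02 and 1.99 on the left arrays and 1.32 and 1.35 on the right. As deposited, the 2 arrays of a side correlated positively, at 0.743 (left) and 0.666 (right) over all features. Over features with 1 gene these were 0.264 and 0.243. Turning reverses that sign, so across features the turned arrays of a side ran against each other.

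GEO's platform annotation, with symbols updated through RefSeq (GRCr8), gave 23535 features 1 gene, 48 several (not named) and 20045 none. A gene's value is the mean over its probes. Named by rule are all members, the genes of 2 wider lists that passed on a side or in the difference of sides, 9 further core genes, and the 3 nearest patterns of a member that passed. Outside that rule, Ccng1, Cdkn1a and Fas were named as checks of direction, and some cell type markers because they passed. Gpd1, Pdk4, Fkbp4, Anxa1, Nfil3, Sult1a1, Mt2A, Rorb and Prok2, from the wider lists, were named for their values. Members and lists were chosen with earlier results of these data known. The fold rule was checked on made-up values with planted effects well past 1.5-fold. That check does not bear on values near the line. Alternatives were 1 array alone, no turning, centring, a 2-fold rule, other ways of joining probes and another log base. Python 3.11.15 with pandas 2.3.3 was used. The number of arrays limits the technical precision, and with 1 pair of RNAs a side the error between animals is unknown.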

Additional observations from a re-analysis of the deposited data

Results flagged for a closer look

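Sgk1 was above control on both left arrays (0.07 and 0.05) and below control on both right arrays (-0.06 and -0.04), so the sides moved in opposite directions. The left-minus-right difference was 0.11 ± 0.02 on the log2 scale, far under the 1.5-fold rule, and it was not tested. No other member did this. Of the 19 other clock genes and 32 other glucocorticoid-related genes measured, 3 did. The share of all genes that did this was not counted, so these counts cannot be read as more or fewer than usual. Nfil3, a repressor at D-boxes, read -0.43 and -0.02 on the left and 0.30 and 0.07 on the right, a difference of -0.41 ± 0.32. Sult1a1, a sulfotransferase, read -0.30 and -0.27 on the left and 0.04 and 0.34 on the right, a difference of -0.47 ± 0.14. Mt2A, a metallothionein, read 0.01 and 0.18 on the left and -0.08 and -0.04 on the right, a difference of 0.16 ± 0.06. None of these 3 differences passed the fold rule, none was tested, and the 3 genes are named here after their values were seen. Groups of 2 arrays are too small to look for an outlying array.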

How the results depend on the processing

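With each array centred on its median, with the median over probes and with RefSeq mRNA probes alone, the counts were those given above, except that centring added Bhlhe40 on the right (1 of 10). The probe with the largest absolute mean also gave 1 of 10 members on the right, again Bhlhe40 (0.66). It put 3 of 32 other glucocorticoid-related genes past the rule on the left (2 higher, and Fkbp4 lower at -0.87). On the right it put 4 past the rule, Cebpd and Klf9 higher and Nr3c1 and Anxa1 lower (-0.97 and -1.16). Of all genes 3.79% then passed on the left and 5.59% on the right. Under a 2-fold rule 0 members and 0 other clock genes passed on either side, and 1 other glucocorticoid-related gene (Cebpd) on each. On the right Cebpd passed only just, with array 2 at 1.0002 against a line of 1 in log2. Of all genes 0.518% passed that rule on the left and 0.88% on the right. Array 1 alone put 2 members past 1.5-fold on the left, 1 on the right and 1 in the difference of sides, with 3 and 5 other clock genes and 8 and 4 other glucocorticoid-related genes on the left and right. Array 2 alone put 2 members past it on the right and 2 in the difference of sides, with 2 and 5 other clock genes and 8 and 7 other glucocorticoid-related genes. By either array alone 16.2% to 24.2% of all genes passed on a side or in the difference. Read as already turned, the table gave 0 members on the left, 0 and 3 other clock genes and 4 and 0 other glucocorticoid-related genes on the left and right. Under that reading 5.71% of all genes passed on the left and 7.45% on the right, more than the 2.2% and 3.17% of the main reading. Of the values that had passed, Cebpd on the left (-0.15) and Vip on the right (-0.044) then changed sign. Values that had not passed also changed sign, among them Cry1 on the left (0.60) and Per2 and Zbtb16 on the right (0.48 and -0.51). Read as log2 in place of log10, the values gave 0 on every list, because each is then smaller. Apart from that reading and the reading as already turned, Bhlhe40 ranged between 0.62 and 0.70 on the left and between 0.54 and 0.66 on the right. For the changes under 1 array alone and under the reading as already turned, the cause was not tested. No paired analysis was possible because each side has 1 replicate.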

Other observations

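Over all probes with 1 gene, those annotated to a RefSeq mRNA disagreed less between the 2 arrays of a side than other probes. The median distance of either array from the mean was 0.15 on the left and 0.16 on the right over 17932 RefSeq mRNA probes with 1 gene, and 0.27 and 0.31 over 5603 other probes. That distance was past 1.5-fold for 11.5% and 15.1% of the RefSeq mRNA probes on the left and right, and for 25.5% and 31.7% of the others. Of the member probes 13 were of the first kind, with a median distance of 0.07 on the left and 0.16 on the right. The 4 of the second kind had medians of 0.28 and 0.06, so on the right the members ran the other way. A median over 4 probes is too few to read as a reversal, and among them Bmal1 probe 1 lay at 0.84 there. Examples of the second kind among the clock genes outside the 10 are the probes of Cry1 and Per3: that of Cry1 read 0.46 and -1.61 on the left and 1.40 and -1.41 on the right, and that of Per3 read 0.88 and -1.24 on the left and 2.18 and -1.41 on the right.

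Rorb, a clock-related nuclear receptor found in cortex and thalamus, read 3.52 and -0.65 on the right by its 1 probe, and Prok2, a signal of clock neurons, read 2.36 and -0.77. Their means of 1.44 and 0.80 rest on array 1 alone. Rorb and Prok2 were named after their values were seen.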
